A study of Mus musculus with 14 samples.

Results

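The change that MC3T3-E1 control cells went through between day 0 and day 5 was followed gene by gene. MC3T3-E1 is an osteoblast precursor line from mouse skull bone. The genes described are those with at least 10 counted reads in at least 2 of the 4 control libraries of these days, which were 12097 of the 24346 genes counted. The other 12249 genes were not tested. The series compares control cells with cells labelled as MACF1 knockdown on 4 days (0, 3, 5 and 10), in 14 libraries of polyadenylated RNA. The control groups used here are the 2 libraries of day 0 and the 2 of day 5, all of genotype control, with the 2 libraries of day 3 and the single library of day 10 as levels only. The labels name these columns NC and those of the knockdown sh, and they give no agent, vector or clone for either. Neither the medium nor the event from which the days are counted is given in the sources used here. The pairs are biological replicates by the design text, but no source says that they were separate cultures. A p-value therefore measures how far these libraries differ, and part of that may be technical.

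Osteoblasts are the cells that lay down bone. A precursor becomes an osteoblast under transcription factors such as RUNX2 and SP7, secretes a matrix made mostly of type I collagen, and then fills it with calcium phosphate, for which alkaline phosphatase and related enzymes free phosphate from larger molecules. Wnt and BMP proteins drive the process in bone, and the cells usually leave the cell cycle as they mature.

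Counted reads numbered 16228425 and 14166742 in the day 0 libraries and 18128624 and 12590033 in those of day 5. Levels are given as CPM, counts scaled to a library of 1000000 reads after scaling of library sizes by trimmed mean of M values over the 7 control libraries. Log2 fold changes come from edgeR's quasi-likelihood test on the 4 libraries, with Benjamini-Hochberg adjustment over all 12097 genes, and a gene is said to have risen or fallen where the adjusted p was under 0.05. The second control library of day 3 differed from the others: 19.7% of its reads fell on genes of cytoplasmic ribosomal proteins, against 8.21% to 9.72% in the 4 libraries compared. Its levels at day 3 are printed second in each pair and should be read with that in mind. The osteoblast identity of the cells was checked first. Sparc, Col1a1, Runx2 and Sp7 were present at both days, while Bglap, the osteocalcin gene of the mature osteoblast, had 2 and 0 counts at day 0.

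At day 5, 2065 genes (17.1% of those tested) were higher and 1871 (15.5%) were lower, together 32.5%. The median log2 fold change over all tested genes was −0.002, that of the risen genes 0.72 and that of the fallen genes −0.67. A change of at least 2-fold was seen in 624 risen genes (5.16%) and 496 fallen genes (4.1%). By at least 8-fold, 140 genes rose and 23 fell, and both counts include genes with enough reads on 1 day only. Of the tested genes, 199 had passed the filter only through day 5, of which 140 were among the risen, and 89 only through day 0, of which 42 were among the fallen. With these left out the counts of all risen and fallen genes were 1925 and 1829. The 8-fold counts were not taken without them. Such members are named below for lists that held more than 1 in a direction and for the Wnt targets. When all 14 libraries shared 1 estimate of the spread, 587 genes rose and 514 fell, and 1100 of them were among the 3936 with the same sign. Without control day 3 replicate 2 that shared estimate gave 2127 and 2009. The common dispersion, which measures the spread beyond counting, was 0.00998 in the 4 libraries, 0.0463 in all 14 and 0.0114 in the 13. In the paragraphs on gene groups, the count from all 14 libraries is given where it is smaller by over 1.5 times.

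**Figure D1:**
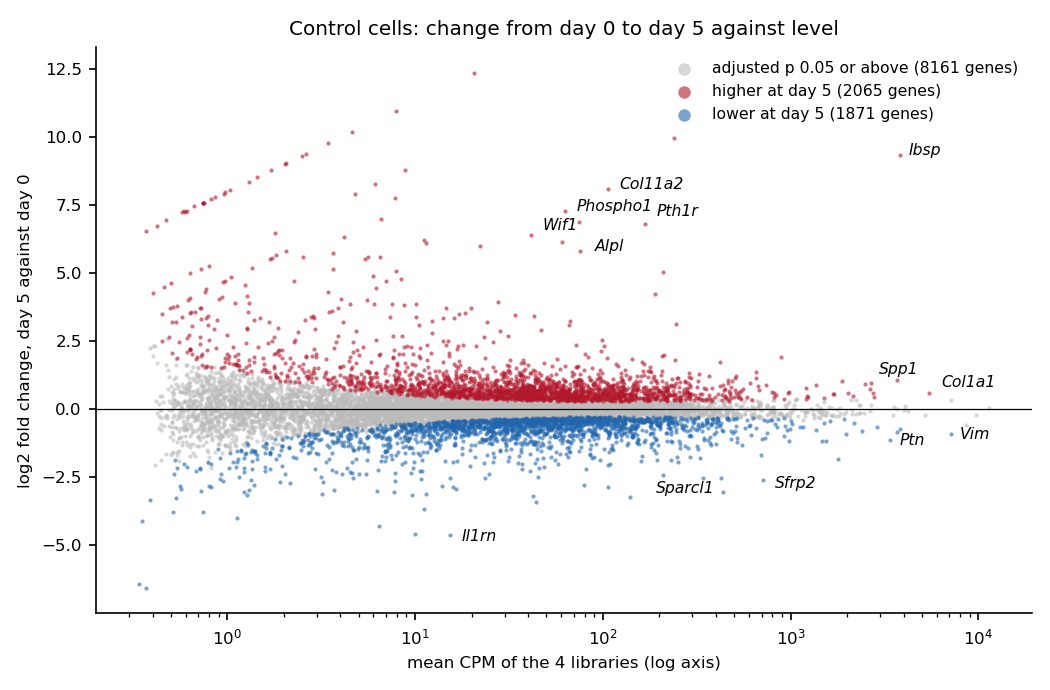
Log2 fold change from day 0 to day 5 (vertical axis) against the mean level over the 4 control libraries in CPM (horizontal log axis), with 1 point per gene tested. The 2065 risen genes are red, the 1871 fallen genes blue and the other 8161 grey. Ibsp stands alone at high level and large rise, and the straight rows of points at the upper left are genes with 0 or few counts at day 0.

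The change was related to the base composition of the transcripts. Across 12060 genes the Spearman correlation of the log2 fold change with GC content was −0.27, where genes are not independent replicates. In the quintile of genes with the lowest GC content (median 41.2%), 895 genes rose (37.1%) and 164 fell (6.8%), with a median log2 fold change of 0.31. In the quintile with the highest (median 57.7%), 246 rose (10.2%) and 482 fell (20%), with a median of −0.11. The libraries of 1 day also differed in this respect: the median deviation of the lowest quintile from the mean of the 4 libraries was −0.08 and −0.21 at day 0 and 0.21 and 0.08 at day 5 (log2). A fit with a correction for GC content, chosen after seeing the data, called 1972 genes higher and 1906 lower, of which 3122 were called with the same sign without it. It turned the sign of 41 called genes and moved no log2 fold change by more than 0.8. Log2 fold changes of single genes with low GC content moved in this fit. That of Dcn went from 1.1 to 0.61 and that of Smc2 from 1.18 to 0.8, while falls grew for Aspn (−1.36 to −1.98) and Ogn (−1.87 to −2.41). Log2 fold changes printed below are without the correction unless said otherwise. Whether GC content caused part of a gene's change was not tested. Counts of gene groups with this correction are given where they differ by over 1.5 times.

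**Figure D2:**
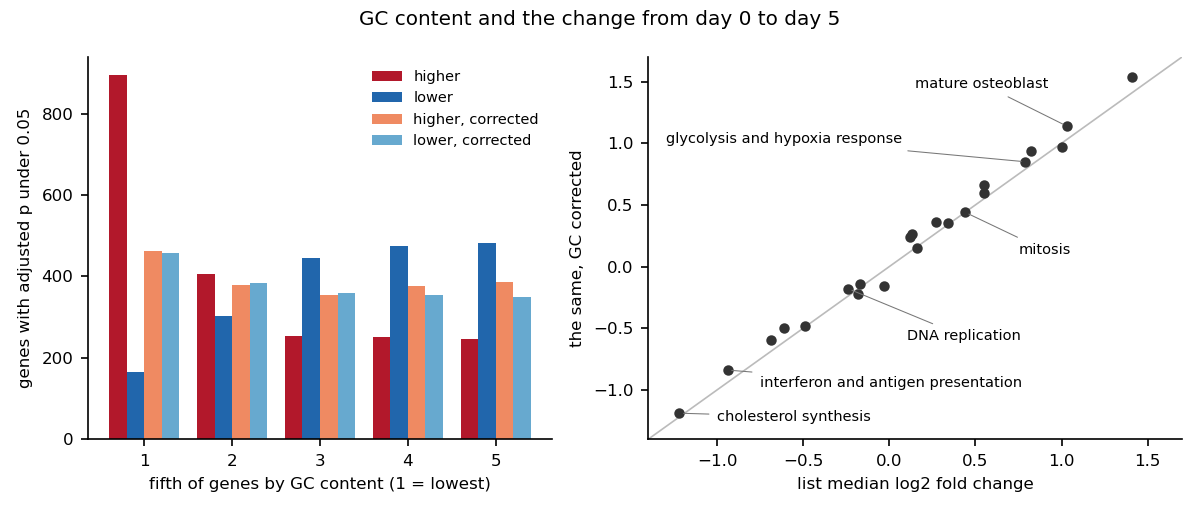
Left, number of genes that rose or fell (adjusted p under 0.05) in each quintile of genes by GC content, without and with the correction. Right, median log2 fold change of 22 gene lists without (horizontal) and with the correction (vertical), with a line of equality. The correction takes out each library's trend with GC content, so by design it removes the excess of risen genes in the lowest quintile (895 against 164). The list medians stay close to the line.

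Genes of the mature osteoblast rose. Of 25 tested members of this list, 17 rose, 2 fell (1 with all 14 libraries) and 6 did not pass, with a median log2 fold change of 1.03. Bglap, Bglap2, Ifitm5 and Enpp1 passed the filter only through day 5. Without these, 13 of 21 rose, with a median of 0.95. Ibsp (ENSMUSG00000029306.8, chr5:104299171-104311469, plus strand, GRCm38), which encodes bone sialoprotein, an acidic matrix protein that binds hydroxyapatite, was 14.2 and 9.64 CPM at day 0 and 8138 and 7049 CPM at day 5. This was the largest rise among genes with at least 4 counts in every library and a mean of at least 5 CPM (log2 fold change 9.31, SE 0.25, adjusted p = 8.68e-08). Ibsp was already at 1139 and 1024 CPM at day 3, and the single library of day 10 held 2015 CPM. Alpl (ENSMUSG00000028766.8, chr4:137741733-137796384, minus strand), the alkaline phosphatase that breaks down the mineralisation inhibitor pyrophosphate, was 2.75 and 2.5 CPM at day 0 and 151 and 145 CPM at day 5, a 56.3-fold rise (log2 fold change 5.81, SE 0.14, adjusted p = 7.1e-08). Pth1r (ENSMUSG00000032492.12, chr9:110722085-110747145, minus strand), the receptor for parathyroid hormone, was 3.55 and 2.43 CPM at day 0 and 335 and 334 CPM at day 5 (log2 fold change 6.79, SE 0.17, adjusted p = 7.1e-08). For all of these genes the single library of day 10 lay below both libraries of day 5.

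Matrix genes with high counts at day 0 rose by smaller factors. Sparc (ENSMUSG00000018593.10, chr11:55394500-55423183, minus strand), or osteonectin, which binds collagen and calcium, was 2258 and 2471 CPM at day 0 and 5038 and 4925 CPM at day 5 (log2 fold change 1.08, SE 0.13, adjusted p = 0.000348). Spp1 (ENSMUSG00000029304.12, chr5:104435118-104441050, plus strand), osteopontin, a phosphoprotein of mineralised matrix, was 1922 and 1701 CPM at day 0 and 3813 and 3301 CPM at day 5 (log2 fold change 0.97, SE 0.13, adjusted p = 0.000843). It had been lower at day 3 (948 and 591 CPM) than at day 0, and it was highest in the library of day 10, at 7193 CPM. Col1a1 (ENSMUSG00000001506.10, chr11:94936224-94953042, plus strand), the major chain of type I collagen, was 4008 and 4730 CPM at day 0 and 6257 and 6973 CPM at day 5 (log2 fold change 0.60, SE 0.14, adjusted p = 0.0123). The rise of Col1a1 did not pass without day 0 replicate 1 (adjusted p = 0.0881), without day 5 replicate 2 (adjusted p = 0.0695) or with all 14 libraries in the fit (adjusted p = 0.113). Col1a2, its partner chain, was 5949 and 6678 CPM at day 0 and 7683 and 8298 CPM at day 5 and did not pass (adjusted p = 0.0882). Tnc, the matrix glycoprotein tenascin-C, was 344 and 404 CPM at day 0 and 1334 and 1467 CPM at day 5 (log2 fold change 1.91, SE 0.13, adjusted p = 1.68e-05).

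**Figure D3:**
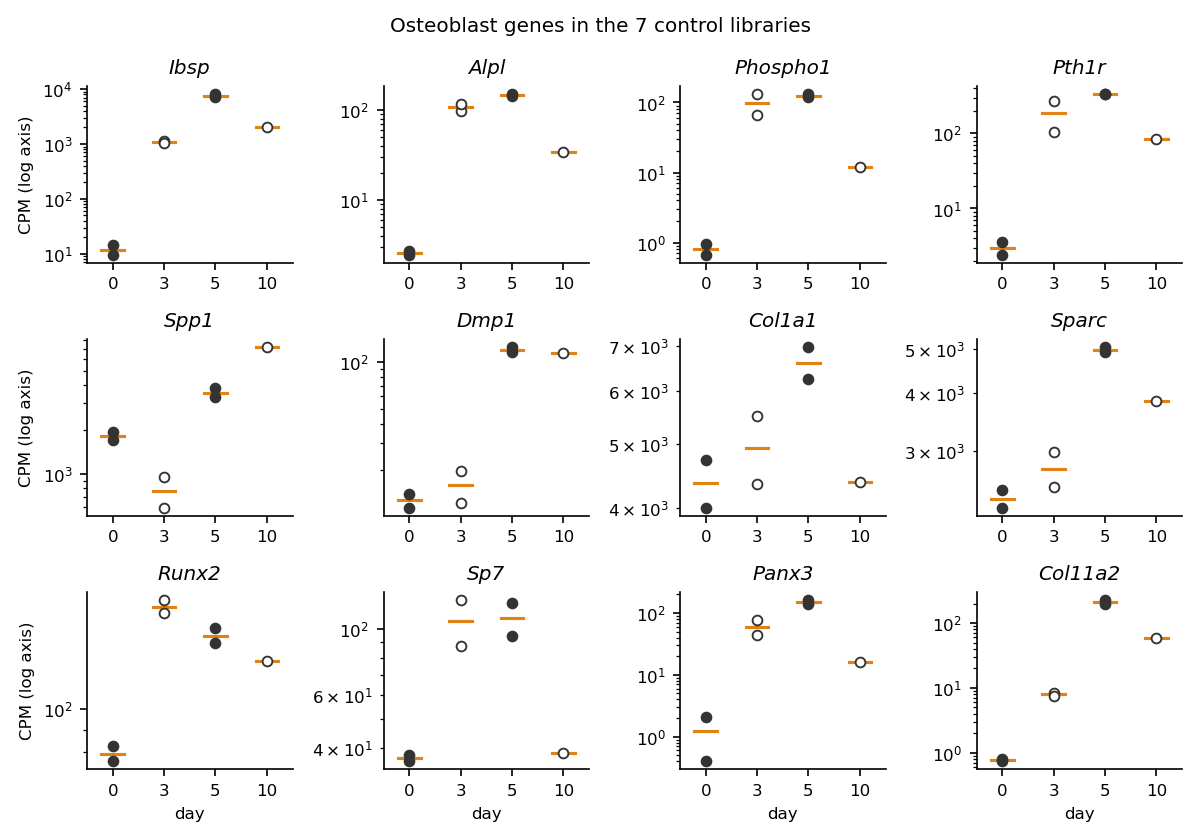
Levels of 12 osteoblast genes in CPM (log axis) in the 7 control libraries by day, with 1 point per library and an orange bar at the mean of the day. Filled points are the libraries compared and open points those of days 3 and 10. Ibsp climbs from 14.2 and 9.64 CPM at day 0 to 8138 and 7049 CPM at day 5, while Spp1 falls at day 3 before it rises.

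Of the late markers of bone cells, Bglap, Bglap2 and Phex were still low at day 5, while Dmp1 was not. Bglap was 0.122 and 0 CPM at day 0 and 1.19 and 1.21 CPM at day 5 (2 and 0 against 22 and 16 counts), and it was 15.3 CPM in the library of day 10. Bglap2 had 4 and 0 counts at day 0 and 28 and 15 at day 5. The copies of the osteocalcin gene are nearly identical, so the division of reads between them is uncertain. Dmp1 (ENSMUSG00000029307.7, chr5:104202613-104214102, plus strand), a matrix protein typical of osteocytes, the cells buried in bone, was 14.1 and 11.4 CPM at day 0 and 125 and 116 CPM at day 5 (log2 fold change 3.24, SE 0.13, adjusted p = 1.38e-06). Phex, a membrane peptidase that bone cells use in phosphate regulation, was 0.306 and 0.607 CPM at day 0 and 2.11 and 1.36 CPM at day 5 (log2 fold change 1.95, SE 0.52, adjusted p = 0.0194). It no longer passed without day 0 replicate 1 (adjusted p = 0.058) or day 5 replicate 1 (adjusted p = 0.104). Of 12 tested osteocyte genes, 4 rose and 6 fell (2 with all 14 libraries), with a median of −0.33. Among those that fell were Dstn, which severs actin filaments (618 and 612 CPM at day 0 and 358 and 346 CPM at day 5), and Ackr3, a scavenger receptor for chemokines (10.2 and 11.2 CPM at day 0 and 4.92 and 3.09 CPM at day 5).

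Genes of phosphate handling, which include Enpp1 as a maker of the inhibitor pyrophosphate, mostly rose. Of 12 tested members, 8 rose and 1 fell (0 with all 14 libraries or the GC correction), with a median of 1.0 against −0.002 over all genes. Enpp1 and Phex passed the filter only through day 5, and of the other 10 members 6 rose, with a median of 0.75. Phospho1 (ENSMUSG00000050860.6, chr11:95824499-95832140, plus strand), a phosphatase of matrix vesicles that frees phosphate from phosphocholine, was 0.673 and 0.944 CPM at day 0 and 118 and 132 CPM at day 5 (log2 fold change 7.27, SE 0.18, adjusted p = 7.1e-08). Nt5e, the ectoenzyme CD73 that splits AMP into adenosine and phosphate, was 0.612 and 0.27 CPM at day 0 and 17.2 and 13.4 CPM at day 5 (log2 fold change 5.08, SE 0.33, adjusted p = 1.35e-05). Enpp1, which makes pyrophosphate from ATP, had 2 and 0 counts at day 0, 46 and 21 at day 5 and a level of 17.1 CPM at day 10. The gene that fell, the phosphate transporter Slc20a2, was 15.1 and 17.4 CPM at day 0 and 12.1 and 11.4 CPM at day 5 (adjusted p = 0.0471). It no longer passed without day 0 replicate 2 (adjusted p = 0.236), without either day 5 library (adjusted p = 0.0773 and 0.121), in DESeq2 (adjusted p = 0.12) and with the GC correction (adjusted p = 0.11).

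Other large rises belonged to channels, secreted proteins and collagen genes. Col11a2, a chain of the minor fibrillar collagen XI, was 0.795 and 0.742 CPM at day 0 and 224 and 199.5 CPM at day 5 (log2 fold change 8.09, SE 0.17, adjusted p = 7.1e-08). Panx3, a channel of the pannexin family found in osteoblasts and chondrocytes, was 2.08 and 0.405 CPM at day 0 and 159 and 139 CPM at day 5 (log2 fold change 6.86, SE 0.33, adjusted p = 2.84e-06). The 2 day 0 libraries of Panx3 were apart from each other, and both were far below day 5. Slc8a3, a sodium-calcium exchanger, was 0.673 and 0.674 CPM at day 0 and 43.5 and 43.7 CPM at day 5, and the secreted protein C1qtnf3 was 1.28 and 2.09 CPM at day 0 and 116 and 123 CPM at day 5. Tnfrsf11b, which encodes osteoprotegerin, the decoy receptor that blocks osteoclast formation, was 13 and 11.8 CPM at day 0 and 422 and 388 CPM at day 5 (log2 fold change 5.03, SE 0.12, adjusted p = 7.1e-08). Prss35, a secreted relative of serine proteases, was 0.306 and 0.27 CPM at day 0 and 21.4 and 22.4 CPM at day 5, and F13a1, the transglutaminase of clotting factor XIII, was 0.428 and 0.337 CPM at day 0 and 11.5 and 11.5 CPM at day 5. Sema7a, a membrane-anchored semaphorin, was 0.673 and 0.472 CPM at day 0 and 15.8 and 16.7 CPM at day 5. In each of these genes both day 5 libraries lay above both of day 0.

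A few genes went from near absence to clear expression, and for them only levels are given. H19, an imprinted long noncoding RNA next to Igf2, had 12 and 3 counts at day 0 and 9743 and 5679 at day 5 (527 and 428 CPM), and it was 1251 CPM at day 10. Igf2, the growth factor gene beside it, was 2.88 and 2.7 CPM at day 0 and 37.6 and 35.8 CPM at day 5 (log2 fold change 3.71, SE 0.16, adjusted p = 1.71e-06). Ncf1, a subunit of the phagocyte NADPH oxidase, had 0 and 0 counts at day 0 and 834 and 496 at day 5. Padi2, an enzyme that converts arginine in proteins to citrulline, had 0 and 1 counts at day 0 and 323 and 238 at day 5. Car3, a carbonic anhydrase, had 0 and 0 and then 310 and 196, and Hapln1, a link protein of cartilage matrix, had 2 and 0 and then 308 and 193. A count of 3 corresponds to 0.185 and 0.212 CPM in the day 0 libraries, which is the limit that a count of 0 allows by counting error alone.

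Transcription factors of the lineage moved in both directions. Of 25 tested, 7 rose, 7 fell (2 with all 14 libraries) and 11 did not pass, with a median of −0.05. Runx2 (ENSMUSG00000039153.14, chr17:44495987-44814797, minus strand), the master regulator of osteoblast commitment, was 82.3 and 76.3 CPM at day 0 and 153 and 142 CPM at day 5 (log2 fold change 0.89, SE 0.10, adjusted p = 0.000294), after 177 and 166 CPM at day 3. Sp7 (ENSMUSG00000060284.6, chr15:102356606-102367182, minus strand), which acts downstream of Runx2, was 38 and 36.3 CPM at day 0 and 94.4 and 122 CPM at day 5 (log2 fold change 1.54, SE 0.14, adjusted p = 7.57e-05). It was back at 38.7 CPM in the library of day 10. Mef2c, a factor of late osteoblasts and osteocytes, was 33.5 and 34.3 CPM at day 0 and 167 and 172 CPM at day 5 (log2 fold change 2.32, SE 0.10, adjusted p = 1.71e-06). Creb3l1, which turns on collagen and secretion genes, was 63.4 and 60.9 CPM at day 0 and 227 and 217 CPM at day 5 (log2 fold change 1.84, SE 0.10, adjusted p = 5.98e-06). Dlx3, a homeodomain factor of bone and skin, had 0 and 0 counts at day 0 and 83 and 79 at day 5. Among those that fell was Sox9, the master factor of cartilage (205 and 195 CPM at day 0 and 117 and 89.8 CPM at day 5). With all 14 libraries Sox9 did not pass (adjusted p = 0.228). Msx2, a homeodomain factor of early bone cells, was 5.87 and 4.99 CPM at day 0 and 1.57 and 2.04 CPM at day 5.

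Markers of other cell types stayed low, apart from some of cartilage. The chondrocyte list summed to 303.3 and 311.5 CPM of the library total at day 0 and 408.5 and 404.5 at day 5. Of its 9 tested members 4 rose and 2 fell (0 with all 14 libraries). Matn3, Col9a1 and Hapln1, which make up 3 of the 4 rises, passed the filter only through day 5, and of the other 6 members 1 rose. Col2a1, the collagen of cartilage, was 73.2 and 77.2 CPM at day 0 and 240 and 255 CPM at day 5 (log2 fold change 1.72, SE 0.10, adjusted p = 8.37e-06), Col9a1 had 0 and 0 counts at day 0 and 27 and 12 at day 5, and Matn3 had 2 and 1 and 42 and 17. Acan, the defining proteoglycan of cartilage, had 0 to 2 counts in each of the 4 libraries, as had Matn1. The adipocyte genes Adipoq (0 counts), Fabp4 (at most 5) and Pparg (at most 6) were near or at 0, and so were the muscle gene Myog, the macrophage genes Ptprc and Adgre1, the osteoclast gene Acp5 and the endothelial genes Cdh5 and Kdr, all with 0 counts. Others of these sets had reads. Cebpa of the adipocyte set had 147 and 143 counts at day 0 and 122 and 98 at day 5. The muscle gene Des had 21 and 21, then 29 and 18, and the endothelial gene Vwf 19 and 20, then 16 and 13. The macrophage genes Cd68 and Csf1r and the endothelial genes Pecam1 and Tek had at most 8 counts. In the macrophage and osteoclast list 1 gene rose, the collagen-degrading protease Ctsk (log2 fold change 0.73), which fibroblasts and osteoblasts also express. In bulk RNA a change in the number of cells of a kind and a change of RNA per cell cannot be told apart.

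RNA of collagen genes and of enzymes that modify collagen changed in both directions, while the matrix itself was not measured. Of 26 tested collagen genes, 8 rose (4 with all 14 libraries) and 7 fell (1), with a median of 0.13. These are 30.8% and 26.9%, against 17.1% and 15.5% of all tested genes. Besides Col11a2 and Col2a1, Col24a1, a fibrillar collagen of bone, was 10.1 and 11.3 CPM at day 0 and 23.7 and 26.8 CPM at day 5 (log2 fold change 1.24, SE 0.15, adjusted p = 0.000382). The basement membrane chain Col4a6 was 61.2 and 60.9 CPM at day 0 and 23.7 and 28.8 CPM at day 5, and its fall did not pass with all 14 libraries (adjusted p = 0.091). Of 28 enzymes that modify collagen 11 rose and 5 fell (4 and 1 with all 14 libraries, and 3 fallen with the GC correction). These are 39.3% and 17.9%, so the share of falls was near that of all genes. The prolyl hydroxylase subunit P4ha2, which helps to stabilise the triple helix, was 68 and 74.5 CPM at day 0 and 178 and 182 CPM at day 5 (log2 fold change 1.34, SE 0.10). Its relative P4ha1 was 303 and 333 CPM at day 0 and 682 and 707 CPM at day 5 (log2 fold change 1.13, SE 0.11). Plod2, the lysyl hydroxylase of collagen telopeptides, was 84.8 and 77.1 CPM at day 0 and 161 and 153 CPM at day 5 (adjusted p = 0.000199), and Lox, which starts collagen cross-links, was 348 and 324 CPM at day 0 and 569.5 and 529 CPM at day 5 (adjusted p = 0.00116).

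Proteoglycans and matrix glycoproteins mostly fell. Of 38 tested, 23 fell (8 with all 14 libraries) and 10 rose, with a median of −0.61. Sparcl1, a relative of Sparc, was 739 and 715 CPM at day 0 and 129 and 124 CPM at day 5 (log2 fold change −2.52, SE 0.10, adjusted p = 1.46e-06). Ogn, the small leucine-rich proteoglycan osteoglycin, was 411 and 312 CPM at day 0 and 113 and 84 CPM at day 5 (log2 fold change −1.87, SE 0.17, adjusted p = 9.85e-05). Ecm1 was 225 and 277 CPM at day 0 and 61.1 and 73 CPM at day 5 (log2 fold change −1.91, SE 0.14, adjusted p = 2.46e-05). Sned1, a matrix protein outside the list, was among the 15 largest falls, from 724 and 839 to 85.7 and 104 CPM. The rises were in part of the same family of small proteoglycans: Omd, or osteomodulin, a keratan sulphate proteoglycan of bone, was 8.26 and 6.41 CPM at day 0 and 92.8 and 64.4 CPM at day 5 (log2 fold change 3.42, SE 0.21, adjusted p = 9.63e-06). Lum, lumican, was 30.3 and 27.5 CPM at day 0 and 172 and 164 CPM at day 5 (log2 fold change 2.54, SE 0.11, adjusted p = 1.59e-06). Dcn, decorin, was 90.8 and 84.8 CPM at day 0 and 198 and 178 CPM at day 5 (log2 fold change 1.1, SE 0.10, adjusted p = 0.000109). Of other small leucine-rich proteoglycans, Aspn, Bgn and Prelp fell like Ogn (log2 fold changes −1.36, −0.67 and −0.51, adjusted p = 0.000172, 0.00275 and 0.00419).

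Matrix-degrading enzymes and their inhibitors were divided, with 10 of 28 risen (5 with all 14 libraries) and 8 fallen (1 with all 14, and 5 on leaving out 1 of the 4 libraries compared). Mmp13, the collagenase of bone and cartilage, was 4.47 and 5.13 CPM at day 0 and 44.5 and 43 CPM at day 5 (log2 fold change 3.19, SE 0.15, adjusted p = 2.32e-06). It reached 815 CPM in the library of day 10. Timp1, an inhibitor of such proteases, was 75.7 and 95.5 CPM at day 0 and 286 and 392 CPM at day 5 (log2 fold change 1.99, SE 0.17, adjusted p = 6.66e-05).

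Targets of canonical Wnt signalling, in which β-catenin enters the nucleus and acts with TCF and LEF factors, mostly rose. Of 25 tested, 15 rose and 6 fell (2 with all 14 libraries), with a median of 0.82 (0.68 without Tcf7, which passed the filter only through day 5). Wif1 (ENSMUSG00000020218.9, chr10:121033960-121100650, plus strand), a secreted inhibitor that binds Wnt proteins and is itself a target, was 0.673 and 1.28 CPM at day 0 and 79.5 and 83.8 CPM at day 5 (log2 fold change 6.39, SE 0.21, adjusted p = 2.98e-07). Tnfrsf19, a receptor of the TNF family, was 18.6 and 19.7 CPM at day 0 and 366 and 353 CPM at day 5 (log2 fold change 4.23, SE 0.11, adjusted p = 8.68e-08). Axin2, a scaffold that promotes β-catenin breakdown, was 7.89 and 10.5 CPM at day 0 and 20.6 and 20.5 CPM at day 5 (log2 fold change 1.16, SE 0.17, adjusted p = 0.00117). Lef1, one of the nuclear factors, was 4.41 and 2.9 CPM at day 0 and 17.4 and 17.6 CPM at day 5 (log2 fold change 2.25, SE 0.21, adjusted p = 0.000109). Tcf7, another, had 0 and 4 counts at day 0 and 124 and 102 at day 5. Rnf43, which removes Wnt receptors from the membrane, was 0.612 and 1.35 CPM at day 0 and 14.3 and 13.8 CPM at day 5 (log2 fold change 3.86, SE 0.30, adjusted p = 3.6e-05). The extracellular Wnt deacylase Notum was 2.08 and 1.55 CPM at day 0 and 9.2 and 8.3 CPM at day 5 (log2 fold change 2.26, SE 0.25, adjusted p = 0.000248). The low genes of this list rest on few reads at day 0, with 5 and 10 counts of Nkd2 and 12 and 4 of Apcdd1.

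The Wnt targets that fell included Sfrp2 (ENSMUSG00000027996.11, chr3:83766321-83774316, plus strand), a secreted Wnt antagonist, which was 1227 and 1228 CPM at day 0 and 198 and 206 CPM at day 5 (log2 fold change −2.60, SE 0.11, adjusted p = 1.6e-06). Wisp2, a matricellular protein, which was 55.4 and 66 CPM at day 0 and 11.7 and 14.6 CPM at day 5 (log2 fold change −2.22, SE 0.15, adjusted p = 1.83e-05). Of 7 tested secreted antagonists 4 rose and 2 fell, with a median of 1.41. Frzb, one of those that rose, had 0 and 0 counts at day 0 and 30 and 18 at day 5. Among 24 tested ligands and receptors, 6 rose and 5 fell (1 with all 14 libraries). These are 25.0% and 20.8%, not far from the 17.1% and 15.5% of all tested genes. The ligand Wnt6 was 3.12 and 3.24 CPM at day 0 and 10.9 and 13.3 CPM at day 5 (log2 fold change 1.92, SE 0.21, adjusted p = 0.000232). Wnt10b, a ligand that favours bone formation, was 12.4 and 13 CPM at day 0 and 21.6 and 24.3 CPM at day 5 (adjusted p = 0.00214, and 0.0649 with all 14 libraries). Wnt11 had 0 and 0 counts at day 0 and 38 and 42 at day 5, and Wnt7b had 0 and 0 and then 36 and 20, so that both were tested only through day 5. Rspo2, a secreted enhancer of Wnt receptors, was 74.8 and 74.1 CPM at day 0 and 14.8 and 18.6 CPM at day 5 (log2 fold change −2.16, SE 0.13, adjusted p = 9.93e-06). Of 28 genes of the intracellular machinery 2 rose and 7 fell (0 and 1 with all 14 libraries, 4 fallen without day 0 replicate 2, and 4 risen and 5 fallen with the GC correction), and Ctnnb1, which encodes β-catenin itself, was 619 and 635 CPM at day 0 and 750.1 and 713 CPM at day 5 (adjusted p = 0.134).

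Several direct targets of BMP fell. The list of BMP signalling had 11 falls and 7 rises (2, and 4 without either day 0 library) among 26 tested, with a median of −0.03. Id1, Id2 and Id3 encode inhibitors of helix-loop-helix factors and are direct targets of BMP-activated SMAD proteins. Id1 was 24.7 and 24.2 CPM at day 0 and 4.22 and 2.56 CPM at day 5 (log2 fold change −2.81, SE 0.21, adjusted p = 3.47e-05). Id2 was 63.9 and 55.7 CPM at day 0 and 17.9 and 11.6 CPM at day 5 (log2 fold change −2.0, SE 0.19, adjusted p = 9.85e-05) and Id3 was 87.8 and 86.3 CPM at day 0 and 23.7 and 23.9 CPM at day 5 (log2 fold change −1.87, SE 0.10, adjusted p = 6.63e-06). Smad6, an inhibitory SMAD that BMP induces, was 41.8 and 40.8 CPM at day 0 and 8.93 and 12.7 CPM at day 5 (log2 fold change −1.95, SE 0.17, adjusted p = 7.28e-05). The ligand Bmp4 was 164 and 164 CPM at day 0 and 67.8 and 75 CPM at day 5 (log2 fold change −1.20, SE 0.10, adjusted p = 6e-05). Among the rises was Bmper, a secreted binder of BMP proteins, at 1.16 and 1.42 CPM at day 0 and 19.6 and 18.1 CPM at day 5 (log2 fold change 3.87, SE 0.21, adjusted p = 6.62e-06). Atoh8, a helix-loop-helix factor outside the list, was 180.1 and 196 CPM at day 0 and 23.6 and 28.8 CPM at day 5 (log2 fold change −2.85, SE 0.13, adjusted p = 1.9e-06).

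Genes of other growth factor pathways changed member by member. In the TGF-beta list 5 of 22 rose (1 with all 14 libraries) and 10 fell (4). These are 22.7% and 45.5%, against 17.1% risen and 15.5% fallen over all tested genes, so the share of rises was near that of all genes. Tgfb1 was 23.2 and 23 CPM at day 0 and 71.7 and 76.9 CPM at day 5 (log2 fold change 1.69, SE 0.11, adjusted p = 1.35e-05). The binding protein Ltbp2, which stores TGF-beta in the matrix, was 125 and 172 CPM at day 0 and 48.1 and 59.4 CPM at day 5 (adjusted p = 0.000294), and Ltbp3 was 231 and 279.6 CPM at day 0 and 96.6 and 113 CPM at day 5 (adjusted p = 0.000147). In the FGF list 7 of 15 rose (4) and 1 fell (0), with a median of 0.34. The rises included feedback genes that FGF signalling induces: Spry1 was 2.14 and 1.42 CPM at day 0 and 16.8 and 20.4 CPM at day 5 (log2 fold change 3.36, SE 0.24, adjusted p = 2.26e-05). Dusp6 was 13.2 and 18.6 CPM at day 0 and 47.4 and 47.8 CPM at day 5 (log2 fold change 1.59, SE 0.16, adjusted p = 0.000172). Etv4 was 4.65 and 5.06 CPM at day 0 and 14.2 and 15.9 CPM at day 5 (log2 fold change 1.63, SE 0.18, adjusted p = 0.000241). In the IGF list 5 of 15 rose (33.3%) and 6 fell (40.0%). Igf1 was 140.5 and 132 CPM at day 0 and 42.9 and 35.5 CPM at day 5 (log2 fold change −1.79, SE 0.12, adjusted p = 1.52e-05). Its binding protein Igfbp6 was 130.1 and 136 CPM at day 0 and 27.3 and 30.6 CPM at day 5 (log2 fold change −2.20, SE 0.11, adjusted p = 3.63e-06), opposite in sign to Igf2. Of other binding proteins, Igfbp2 and Igfbp4 rose (log2 fold changes 2.04 and 1.41, adjusted p = 9.62e-06 and 4.72e-05). Igfbp7 fell (−1.0, adjusted p = 0.00122) and Igfbp5 did not pass (adjusted p = 0.15).

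Genes of mitosis were higher at day 5. Of 46 tested members of this list 30 rose (11 with all 14 libraries) and none fell, with a median of 0.44 against −0.002 over all genes. Mki67 (ENSMUSG00000031004.7, chr7:135689784-135716361, minus strand), the proliferation marker Ki-67, was 414 and 422 CPM at day 0 and 801 and 805 CPM at day 5 (log2 fold change 0.94, SE 0.10, adjusted p = 0.000229). Kif11 (ENSMUSG00000012443.3, chr19:37376403-37421859, plus strand), the motor that separates the spindle poles, was 115 and 109 CPM at day 0 and 266 and 255 CPM at day 5 (log2 fold change 1.22, SE 0.10, adjusted p = 4.46e-05). Kif11 did not pass with all 14 libraries (adjusted p = 0.149). Cenpe, a kinetochore motor, was 174 and 157 CPM at day 0 and 426 and 395 CPM at day 5 (log2 fold change 1.31, SE 0.11, adjusted p = 4.8e-05). Smc2, a condensin subunit, was 91.6 and 79.2 CPM at day 0 and 197 and 189.6 CPM at day 5 (log2 fold change 1.18, SE 0.11, adjusted p = 9.1e-05). Some central regulators did not pass: Ccnb1, cyclin B1, was 52.8 and 51.2 CPM at day 0 and 62.6 and 60.9 CPM at day 5 and Cdk1 was 66.9 and 75.3 CPM at day 0 and 83.1 and 85.5 CPM at day 5 (adjusted p = 0.0873 and 0.0998). In the library of day 10 Mki67 was 236 CPM, below every other control library. The list had a median GC content of 46.1%, and 31 members rose with the GC correction.

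Some genes of DNA replication fell, by small amounts. Of 42 tested, 15 fell and 2 rose, with a median of −0.24. Cdc6, which loads the replicative helicase, was 24 and 26.6 CPM at day 0 and 15.7 and 14.9 CPM at day 5 (log2 fold change −0.73, SE 0.14, adjusted p = 0.00383). Mcm6, a subunit of that helicase, was 251 and 241 CPM at day 0 and 164 and 151 CPM at day 5 (log2 fold change −0.64, SE 0.10, adjusted p = 0.00146). Rrm2, which makes deoxynucleotides, was 72.1 and 88 CPM at day 0 and 46 and 52.1 CPM at day 5 (log2 fold change −0.71, SE 0.13, adjusted p = 0.00317). With all 14 libraries neither Cdc6 (adjusted p = 0.0667) nor Rrm2 (adjusted p = 0.0665) passed. Pcna, the sliding clamp of DNA polymerases, was 158 and 147 CPM at day 0 and 153 and 152 CPM at day 5, with a log2 fold change of 0.00. The number of falls was 1 with all 14 libraries, 11 with the GC correction and 8 without day 5 replicate 1. The rises were 5 without day 0 replicate 1 or day 5 replicate 2.

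Promoters are shown for genes called in the mitosis, DNA replication and cholesterol lists, where most calls had 1 direction. The windows shown were chosen for holding the motifs marked in them, so the presence of these motifs there is not a result. Windows that qualified numbered 5 for mitosis, 2 for DNA replication and 2 for cholesterol synthesis, of which 2, 2 and 1 are shown. Sequences are the 250 bases before the annotated start (RefSeq, GRCm38.p6), 5′ to 3′ on the gene's strand, for windows that overlap no annotated exon. Capitals mark exact matches on either strand to CCAAT, the box bound by NF-Y, and TTTGAA, the core of the CHR element of mitotic genes, for Kif11 and Smc2, to TTTGGCGC or TTTCCCGC, forms of the E2F site, for Mcm6 and Mcm5, and to CCAAT for Mvd of the cholesterol pathway. Kif11 lies at chr19:37376132-37376381, plus strand, and Smc2 at chr4:52438971-52439220, plus strand. Mcm6 lies at chr1:128359706-128359955, minus strand, Mcm5 at chr8:75109259-75109508, plus strand, and Mvd at chr8:122443423-122443672, minus strand.
Kif11: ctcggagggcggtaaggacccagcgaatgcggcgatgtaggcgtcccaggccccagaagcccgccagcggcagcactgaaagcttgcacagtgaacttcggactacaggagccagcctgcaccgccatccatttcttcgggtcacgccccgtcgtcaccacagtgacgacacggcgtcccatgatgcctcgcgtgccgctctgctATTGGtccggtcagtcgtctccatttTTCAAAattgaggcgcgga
Smc2: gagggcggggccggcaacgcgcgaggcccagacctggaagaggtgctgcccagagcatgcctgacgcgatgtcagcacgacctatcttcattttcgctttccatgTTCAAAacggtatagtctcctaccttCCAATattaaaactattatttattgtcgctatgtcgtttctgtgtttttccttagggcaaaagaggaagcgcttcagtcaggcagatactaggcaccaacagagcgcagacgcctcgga
Mcm6: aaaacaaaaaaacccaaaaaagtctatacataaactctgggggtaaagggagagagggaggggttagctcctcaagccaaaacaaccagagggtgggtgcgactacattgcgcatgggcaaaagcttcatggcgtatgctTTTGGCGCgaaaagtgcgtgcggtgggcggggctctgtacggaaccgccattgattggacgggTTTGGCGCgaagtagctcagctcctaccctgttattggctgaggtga
Mcm5: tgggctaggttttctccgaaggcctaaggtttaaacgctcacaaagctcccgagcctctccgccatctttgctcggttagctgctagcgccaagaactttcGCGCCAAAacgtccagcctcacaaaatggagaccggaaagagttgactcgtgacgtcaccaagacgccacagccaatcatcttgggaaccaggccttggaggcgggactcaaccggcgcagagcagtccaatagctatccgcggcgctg
Mvd: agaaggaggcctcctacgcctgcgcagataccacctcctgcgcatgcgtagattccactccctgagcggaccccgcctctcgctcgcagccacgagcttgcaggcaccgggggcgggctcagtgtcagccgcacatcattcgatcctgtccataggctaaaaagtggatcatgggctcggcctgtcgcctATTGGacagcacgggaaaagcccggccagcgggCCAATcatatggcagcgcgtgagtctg

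In windows of 250 bases before to 50 after the start, CCAAT was found in 24 of 29 windows of the risen mitosis genes (82.8%) and TTTGAA also in 24 (82.8%). These windows belonged to 27 of the 30 genes. Over all 32851 windows of the reference the shares were 37.4% and 17.9%, and over the 11889 windows of tested genes 38.0% and 12.0%. The E2F letters were found in 7 of 19 windows of the fallen replication genes (36.8%, 13 of 15 genes matched), in 1.56% of all windows and in 2.96% of those of tested genes. CCAAT was found in 13 of these 19 (68.4%). Among 19 windows of the fallen cholesterol genes (16 of 22 genes matched) 15 held CCAAT (78.9%), and an exact form of the sterol regulatory element was in none, against 0.0913% of all windows. Among 20 windows of the risen mature osteoblast genes (14 of 17 genes matched), TGTGGT, the core of the RUNX site, was in 5, against 16.8% of all windows, and CCAAT was in 8. The cyclic AMP response element TGACGTCA was in 2 windows of the mitosis genes, 1 of the replication genes and none of the cholesterol or mature osteoblast genes, against 1.79% of all windows. No motif searched contains another, though neighbouring matches may share end bases, and a match describes letters only.

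Targets of p53, the factor that halts the cell cycle after damage, also rose. Of 18 tested, 11 rose (3 with all 14 libraries) and none fell, with a median of 0.55. Cdkn1a, the cell cycle inhibitor p21, was 129.7 and 141 CPM at day 0 and 256 and 296 CPM at day 5 (log2 fold change 1.03, SE 0.11, adjusted p = 0.000222). Its rise did not pass with all 14 libraries (adjusted p = 0.0515). Eda2r, a receptor of the TNF family, was 17.9 and 17.7 CPM at day 0 and 59.2 and 56.9 CPM at day 5 (log2 fold change 1.71, SE 0.11, adjusted p = 1.53e-05). Ccng1, cyclin G1, was 413 and 399 CPM at day 0 and 897 and 912 CPM at day 5 (log2 fold change 1.16, SE 0.10, adjusted p = 8.63e-05). Ccng1 did not pass with all 14 libraries (adjusted p = 0.139). Mdm2, the ligase that degrades p53, was 159.8 and 162 CPM at day 0 and 305 and 294 CPM at day 5 (log2 fold change 0.90, SE 0.10, adjusted p = 0.000209). Outside that list, Gas1, a membrane protein of resting fibroblasts, was 362 and 407 CPM at day 0 and 113 and 114 CPM at day 5 (log2 fold change −1.76, SE 0.11, adjusted p = 9.62e-06). Myc was 54.6 and 54.1 CPM at day 0 and 89.3 and 103 CPM at day 5 (log2 fold change 0.82, SE 0.11, adjusted p = 0.000625), a rise that all 14 libraries did not show past the threshold (adjusted p = 0.0898).

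Ribosome biogenesis genes, which act in the nucleolus, rose in part. Of 32 tested, 14 rose (3 with all 14 libraries, 9 without day 0 replicate 2) and none fell, with a median of 0.27. Ncl, nucleolin, was 1268 and 1209 CPM at day 0 and 2681 and 2346 CPM at day 5 (log2 fold change 1.02, SE 0.12, adjusted p = 0.000421). Npm1, nucleophosmin, was 1883 and 1575 CPM at day 0 and 3552 and 2983 CPM at day 5 (log2 fold change 0.92, SE 0.15, adjusted p = 0.00166). Dkc1, which modifies ribosomal RNA, was 58.2 and 51.6 CPM at day 0 and 129 and 104 CPM at day 5 (log2 fold change 1.08, SE 0.13, adjusted p = 0.000374). Npm1 did not pass with all 14 libraries (adjusted p = 0.0539). The 95 tested genes of ribosomal proteins themselves had a median of −0.1, with 2 risen and 3 fallen.

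**Figure D4:**
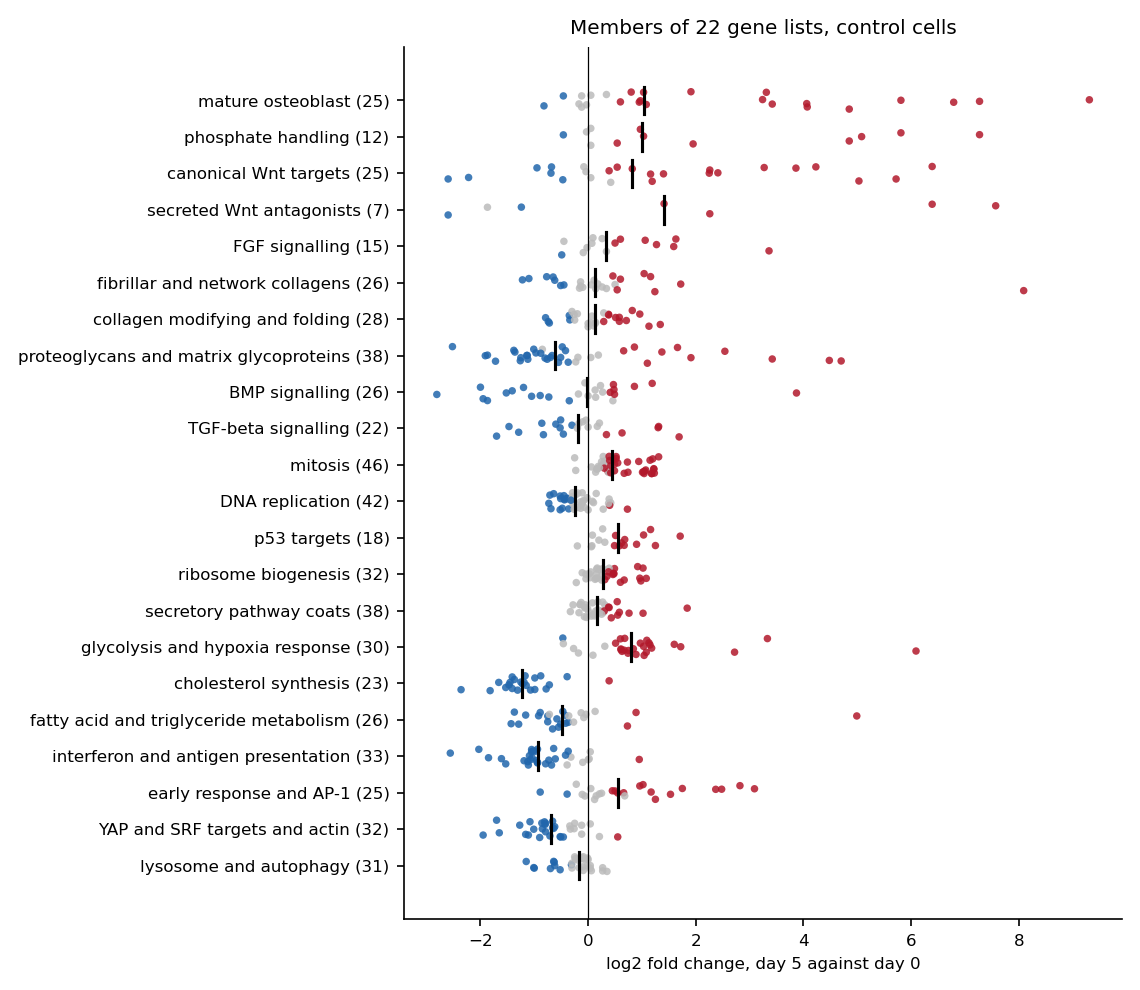
Log2 fold change from day 0 to day 5 (horizontal axis) of the tested members of 22 gene lists, with 1 point per gene, the number tested in brackets and a black bar at the list median. Risen genes are red, fallen genes blue and others grey. The medians run from −1.22 for cholesterol synthesis to 1.41 for the secreted Wnt antagonists.

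Genes of glycolysis and of the response to low oxygen mostly rose. Of 30 tested, 24 rose (14 with all 14 libraries) and 1 fell (0), with a median of 0.79. Without Egln3 and Car9, which passed the filter only through day 5, 22 of 28 rose. Car9, a carbonic anhydrase that is a classical target of hypoxia-inducible factor, was 0.245 and 0.405 CPM at day 0 and 20.7 and 24.3 CPM at day 5 (log2 fold change 6.09, SE 0.28, adjusted p = 2.31e-06). It was 136 CPM in the library of day 10. Ankrd37 was 3.37 and 2.43 CPM at day 0 and 32.1 and 26.6 CPM at day 5 (log2 fold change 3.33, SE 0.20, adjusted p = 9.63e-06). Pgk1 (ENSMUSG00000062070.10, chrX:106187100-106203699, plus strand), a glycolytic kinase, was 189 and 203 CPM at day 0 and 659.9 and 634 CPM at day 5 (log2 fold change 1.72, SE 0.10, adjusted p = 9.63e-06). Bnip3, which acts in removal of mitochondria, was 35.8 and 37.4 CPM at day 0 and 106 and 115 CPM at day 5 (log2 fold change 1.60, SE 0.10, adjusted p = 1.35e-05). Ldha, which makes lactate, was 496 and 538 CPM at day 0 and 926 and 993 CPM at day 5 (log2 fold change 0.89, SE 0.11, adjusted p = 0.000464). Vegfa, the angiogenic factor, was 38.5 and 38.5 CPM at day 0 and 59.7 and 69.1 CPM at day 5 (log2 fold change 0.74, SE 0.11, adjusted p = 0.0014). Each of Pgk1, Bnip3, Ldha and Vegfa was higher again in the day 10 library, at 1213, 311, 1138 and 211 CPM. Ndrg1, also induced by low oxygen, was 51 and 56.5 CPM at day 0 and 35.7 and 41.8 CPM at day 5, a fall (adjusted p = 0.017) that did not pass without day 0 replicate 2 (adjusted p = 0.0615) or day 5 replicate 1 (adjusted p = 0.102).

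Of the 44 gene lists, cholesterol synthesis had the largest share of fallen members. Of 23 tested genes, 22 fell (95.7%) and 1 rose (0 with all 14 libraries), with a median of −1.22. Sqle (ENSMUSG00000022351.12, chr15:59315077-59331192, plus strand), squalene epoxidase, was 275 and 250.3 CPM at day 0 and 105 and 92.9 CPM at day 5 (log2 fold change −1.41, SE 0.11, adjusted p = 3.75e-05). Hsd17b7, a later enzyme of the pathway, was 69.7 and 68.9 CPM at day 0 and 19.2 and 20.1 CPM at day 5 (log2 fold change −1.82, SE 0.11, adjusted p = 9.62e-06). Srebf2, the transcription factor that drives these genes, was 145 and 166 CPM at day 0 and 75.9 and 80.5 CPM at day 5 (log2 fold change −0.99, SE 0.11, adjusted p = 0.000229). The gene that rose was Ebp, a sterol isomerase, at 82.2 and 76.5 CPM at day 0 and 112 and 96 CPM at day 5 (adjusted p = 0.0256). It no longer passed without day 0 replicate 2 (adjusted p = 0.0991) or day 5 replicate 1 (adjusted p = 0.219). Fatty acid genes followed in part: 16 of 26 fell (4 with all 14 libraries) and 3 rose (1), with a median of −0.49. Acly, which makes cytosolic acetyl-CoA, was 376 and 416 CPM at day 0 and 148 and 159.6 CPM at day 5 (log2 fold change −1.37, SE 0.11, adjusted p = 3.75e-05). The elongase Elovl6 was 139 and 123 CPM at day 0 and 60.5 and 46.2 CPM at day 5 (log2 fold change −1.29, SE 0.14, adjusted p = 0.000223). Pnpla2, the lipase that starts triglyceride breakdown, was 5.51 and 4.92 CPM at day 0 and 9.63 and 9.73 CPM at day 5 (log2 fold change 0.89, SE 0.19, adjusted p = 0.00713).

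Interferon-stimulated and antigen presentation genes mostly fell. Of 33 tested, 26 fell (8 with all 14 libraries) and 1 rose, with a median of −0.94. Many were low at both days: Ifit3 was 13.5 and 14.1 CPM at day 0 and 4.28 and 2.26 CPM at day 5 (log2 fold change −2.03, SE 0.26, adjusted p = 0.000562). Oasl2 was 10.3 and 13.5 CPM at day 0 and 3.57 and 2.94 CPM at day 5 (log2 fold change −1.85, SE 0.23, adjusted p = 0.000444). Rtp4 was 11.2 and 9.58 CPM at day 0 and 3.84 and 3.32 CPM at day 5 (log2 fold change −1.53, SE 0.21, adjusted p = 0.000787). In the library of day 10 Ifit3, Oasl2 and Rtp4 stood at 12.8, 11.3 and 10.1 CPM. Xaf1, the one that rose, was 21.4 and 21.2 CPM at day 0 and 40 and 42.4 CPM at day 5 (log2 fold change 0.95, SE 0.12, adjusted p = 0.000451).

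Genes of contractile actin and targets of YAP and SRF, factors that respond to cell tension, mostly fell. Of 32 tested, 23 fell (11 with all 14 libraries) and 1 rose (0), with a median of −0.69. Myl9 (ENSMUSG00000067818.6, chr2:156775420-156781658, plus strand), a myosin light chain, was 393 and 406 CPM at day 0 and 94 and 113 CPM at day 5 (log2 fold change −1.95, SE 0.12, adjusted p = 9.62e-06). Acta2, smooth muscle actin, was 1055 and 1080 CPM at day 0 and 318 and 341 CPM at day 5 (log2 fold change −1.70, SE 0.11, adjusted p = 1.35e-05). The nonmuscle myosin Myh9 was 2051 and 2034 CPM at day 0 and 913 and 912 CPM at day 5 (log2 fold change −1.16, SE 0.11, adjusted p = 0.00012). Cyr61, a YAP target, was 252 and 271 CPM at day 0 and 125 and 121 CPM at day 5 (log2 fold change −1.08, SE 0.10, adjusted p = 8.89e-05). Ctgf, another, was 10.9 and 12 CPM at day 0 and 13.8 and 12.7 CPM at day 5 and did not pass (adjusted p = 0.339). Tagln, transgelin, was the one that rose, at 63.6 and 61.6 CPM at day 0 and 90.2 and 92.8 CPM at day 5 (log2 fold change 0.55, SE 0.10, adjusted p = 0.0028). Tagln did not pass with all 14 libraries (adjusted p = 0.225). Several cytoskeletal genes were also among the 10 largest falls in CPM: Vim, vimentin, was 9091 and 9580 CPM at day 0 and 4905 and 5023 CPM at day 5 (log2 fold change −0.91, SE 0.13, adjusted p = 0.00102). Tpm1, a tropomyosin, was 4948 and 4483 CPM at day 0 and 2742 and 2497 CPM at day 5 (log2 fold change −0.85, SE 0.13, adjusted p = 0.00142). The cytoplasmic actin Actb was 2338 and 2812 CPM at day 0 and 1325 and 1433 CPM at day 5 (log2 fold change −0.90, SE 0.13, adjusted p = 0.00123). The other, Actg1, was 2903 and 3208 CPM at day 0 and 1664 and 1872 CPM at day 5 (log2 fold change −0.79, SE 0.13, adjusted p = 0.00189). Neither passed with all 14 libraries (adjusted p = 0.224 and 0.0665).

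Early response genes, which cells switch on within minutes of a stimulus, tended to rise. Of 25 tested, 14 rose (9 with all 14 libraries) and 2 fell (1, as with the GC correction), with a median of 0.55. Egr1 was 8.44 and 7.35 CPM at day 0 and 42.9 and 45.3 CPM at day 5 (log2 fold change 2.48, SE 0.14, adjusted p = 7.03e-06). Klf4, a zinc-finger factor, was 26.1 and 20.8 CPM at day 0 and 123 and 119 CPM at day 5 (log2 fold change 2.37, SE 0.13, adjusted p = 5.98e-06). Fos was 2.14 and 1.96 CPM at day 0 and 7.58 and 6.19 CPM at day 5 (log2 fold change 1.75, SE 0.25, adjusted p = 0.00102). Jun, the usual partner of Fos, was 180.3 and 157 CPM at day 0 and 93.6 and 87.9 CPM at day 5 (log2 fold change −0.89, SE 0.11, adjusted p = 0.000396). so moved the other way.

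The largest falls were spread over secreted proteins, receptors and detoxifying enzymes. Il1rn, which encodes the receptor antagonist of interleukin-1, was 30 and 28.8 CPM at day 0 and 0.866 and 1.58 CPM at day 5 (log2 fold change −4.63, SE 0.23, adjusted p = 4.32e-06). Npr3 (ENSMUSG00000022206.6, chr15:11839896-11907287, minus strand), the clearance receptor for natriuretic peptides, was 77.9 and 84 CPM at day 0 and 7.96 and 7.24 CPM at day 5 (log2 fold change −3.41, SE 0.13, adjusted p = 7.96e-07). Nov (ENSMUSG00000037362.8, chr15:54745702-54754039, plus strand), a matricellular protein that inhibits osteoblast differentiation, was 260 and 244 CPM at day 0 and 26.9 and 27.1 CPM at day 5 (log2 fold change −3.22, SE 0.11, adjusted p = 3.33e-07). Aoc3, an amine oxidase of adipose and vascular tissue, was 20.2 and 21 CPM at day 0 and 1.89 and 1.28 CPM at day 5 (log2 fold change −3.66, SE 0.22, adjusted p = 9.11e-06). Aldh1a3, which makes retinoic acid, was 29.1 and 29.3 CPM at day 0 and 3.73 and 3.92 CPM at day 5, and Ly6a, the progenitor marker Sca-1, was 15.8 and 11.6 CPM at day 0 and 1.68 and 1.66 CPM at day 5 (adjusted p = 5.96e-06 and 5.06e-05). The glutathione transferase Gsta4 was 77.8 and 74.8 CPM at day 0 and 8.17 and 8.37 CPM at day 5 (log2 fold change −3.20, SE 0.12, adjusted p = 8.05e-07). Most of these were already low at day 3, where Nov was 70.6 and 24.1 and Npr3 21.9 and 7.53 CPM. Enpep, an aminopeptidase, fell from 13.3 and 11 to 0.325 and 0.981 CPM (adjusted p = 6.47e-05) and was 12.4 CPM in the library of day 10. Among genes near absent at day 5, Fmo1 went from 32 and 34 to 2 and 2 counts and Cldn1 from 34 and 37 to 5 and 3.

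The genes whose levels followed Ibsp most closely over the 7 control libraries were Rcor2, Klf4, Wisp1, Bmper and Omd, with Pearson correlations of log2(CPM + 1) from 0.98 to 0.989. This is a description over 7 points from 4 days. Rcor2, a corepressor subunit, was 10.8 and 11.1 CPM at day 0 and 79.7 and 86.2 CPM at day 5 (log2 fold change 2.92, SE 0.12, adjusted p = 1.38e-06). Wisp1, a matricellular Wnt target, was 18.1 and 16.5 CPM at day 0 and 49.5 and 41.8 CPM at day 5 (log2 fold change 1.40, SE 0.13, adjusted p = 0.00012).

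The corresponding change in the libraries labelled knockdown was measured by the same test, over the 12097 genes that passed the filter in control. By the same count rule in the libraries labelled knockdown of these days, 12411 genes would have passed. Genes that passed only there were not tested, so the counts that follow rest on genes chosen by their control reads. In a fit of the 8 libraries of both conditions at days 0 and 5, 1008 genes rose (8.33%) and 905 fell (7.48%) in those libraries, against 2055 (17.0%) and 2035 (16.8%) in control. The test of the difference between the changes found 679 genes with a higher value in the libraries labelled knockdown (5.61%) and 536 with a lower one (4.43%). The difference shares the control libraries with the control change, so the values are only set side by side. From here on levels are CPM of the library total, without that scaling. Macf1, the targeted gene, stood at 150.5 and 162 (control) and 160.1 and 169 (labelled knockdown) at day 0. At day 5 it stood at 174 and 209 (control) and 172 and 186 (labelled knockdown). The ranges overlapped at day 5 and those labelled knockdown were not lower at day 0, so "knockdown" is used as the label's word only.

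Some large rises of control cells were much smaller there. Col11a2 was 1.11 and 0.505 at day 0 and 1.8 and 1.86 at day 5 in the libraries labelled knockdown, against 0.801 and 0.776 and 228 and 210.1 in control (difference of the log2 changes −6.95, adjusted p = 1.59e-05). Dmp1 was 130.2 and 111 and then 77 and 67, against 14.2 and 11.9 and 127 and 122 in control, so that it was high at day 0 in 1 condition and at day 5 in the other (−3.96, adjusted p = 1.94e-06). Spp1 rose in control and fell there, from 4285 and 3963 to 2299 and 2186 (−1.83, adjusted p = 0.000105). For Phospho1 the difference was −3.78 (adjusted p = 3.31e-05) and for Panx3 −4.01 (adjusted p = 0.00566), the latter not passing without the first library labelled knockdown of day 0 (adjusted p = 0.0962). Alpl was lower there on both days, at 0.221 and 0.217 at day 0 (4 and 3 counts) and 46.3 and 42.3 at day 5, against 2.77 and 2.61 and then 154 and 153 in control. Its log2 change was nevertheless larger there, by 1.82 (adjusted p = 0.00789). That difference rests on these few counts and was lost without either day 0 library labelled knockdown (adjusted p = 0.0719 and 0.051). The differences of Runx2 (0.30, SE 0.16), Sp7 (−0.11, SE 0.18) and Axin2 (0.86, SE 0.25) did not pass (adjusted p = 0.316, 0.801 and 0.0619).

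For several gene groups the differences that passed the test lay mostly on 1 side of 0. Over all 12097 genes the difference passed above 0 for 5.61% and below it for 4.43%. Groups that moved in control are described, and the difference uses the same control libraries. That favours a difference of opposite sign, so the values are only set side by side. Counts of risen and fallen members here are from the fit of 8 libraries, in which fewer genes were called in the libraries labelled knockdown than in control (15.8% against 33.8%). Of 30 glycolysis and hypoxia genes, the difference (knockdown minus control) passed below 0 for 19 and above it for none, and 6 rose there against 24 in control. Of 32 genes of the actin and YAP list it passed above 0 for 16 and below it for none, and 4 fell there against 22. Of 33 interferon genes it passed above 0 for 14 and below for 1, and 6 fell there against 27. Of 38 proteoglycans and matrix glycoproteins it passed above 0 for 22 and below for 2. For cholesterol synthesis 22 of 23 fell in both conditions, with a median of −0.89 in the libraries labelled knockdown, and the difference passed above 0 for 5. Acta2 of the actin list was 1063 and 1130 at day 0 and 324 and 359 at day 5 in control. In those labelled knockdown Acta2 was 592 and 653 and then 920.4 and 1029 (difference 2.37, adjusted p = 9.14e-06).

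**Figure D5:**
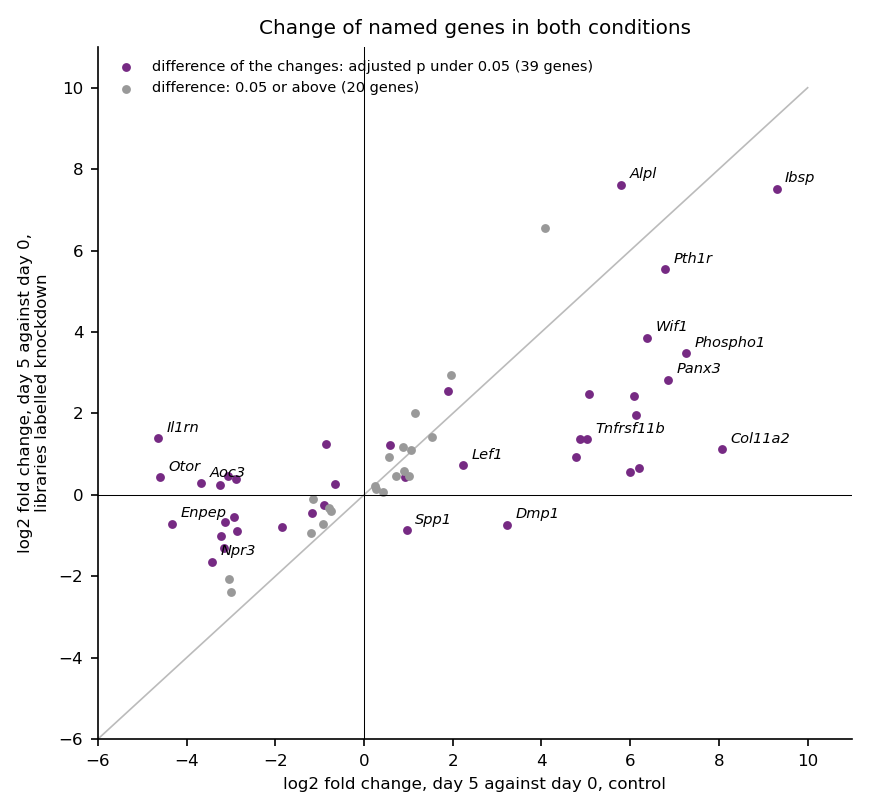
Log2 fold change from day 0 to day 5 in the libraries labelled knockdown (vertical axis) against that in control (horizontal axis) for 59 genes named by the rules on size and the fixed names, from 1 fit of 8 libraries, with a line of equality. The 39 genes whose difference passed are purple and the others grey. Col11a2, Dmp1 and Spp1 lie far below the line and Il1rn, Otor and Aoc3 above it.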

How the data were processed

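The authors deposited 1 table of raw read counts per gene and 1 of RPKM values (reads per kilobase of gene, scaled by library size), per the file headers. The submitters' processing notes name bcl2fastq, TopHat2, edgeR and GRCm38. The library protocol is directional per the labels. Which tool counted the reads, with which strand setting and on which gene models, is not given in the sources used here. Genes that overlap, antisense genes and near-identical copies are therefore uncertain. Counts were filtered at 10 in 2 of the 4 control libraries of days 0 and 5 and fitted with edgeR 4.0.16 (R 4.3.3) by glmQLFit and glmQLFTest, with TMM scaling, a mean per day and a threshold of 0.05 on the Benjamini-Hochberg adjusted p. With 2 residual degrees of freedom the estimates of spread were moderated across genes. The difference between conditions was the interaction in a fit of 8 libraries, over the genes that passed the filter in control. The RPKM values followed from the counts by 1 factor per gene and library, to within 0.137% over 6671 genes with at least 5 RPKM, and served in alternatives with limma 3.58.1. DESeq2 1.42.0 was another alternative.

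Gene positions came from GENCODE M21 for 24181 of the 24346 genes, and GC content from its longest transcript per gene. Members, gene lists and tests were chosen with earlier results of these data known. Genes were named by rule: 14 fixed names, the 15 largest rises and falls among called genes with at least 4 counts in every library and a mean of at least 5 CPM, the 10 largest rises and falls in CPM, 5 near-absent genes per direction, up to 4 called members per list, and the 5 genes most like Ibsp. Some genes that this rule names are not reported here. Other list members named in the text were chosen after their values were seen. Replicates differed by more than counting error, with a chi-square per degree of freedom of 17.4 at day 0 and 13.4 at day 5. On simulated data with 200 changed genes, edgeR recovered 89% of 2-fold and 100% of 4-fold changes for the control comparison (11970 genes), and 69% and 97% for the difference (11922 genes), and called 18 unchanged genes in each. DESeq2 recovered 80% and 98% with 6 unchanged genes called for the first, and 68% and 96% with 22 for the second. The changed genes were drawn without those of the lowest counts and were far fewer than the 3936 called in the data. The simulation held no trend with GC content, so its shares do not cover low-count genes or such a trend.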

Additional observations from a re-analysis of the deposited data

Results flagged for a closer look

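The change from day 0 to day 5 differed between control and the libraries labelled knockdown for many genes, by edgeR's test of the difference with Benjamini-Hochberg adjustment. The difference, given here as the log2 change in the libraries labelled knockdown minus that in control, was above 0 for 679 genes and below 0 for 536. The largest rises and falls of control were picked on control libraries that the difference also uses. That choice favours a difference of opposite sign, so the values below are only set side by side. Among the largest rises of control it was −1.78 for Ibsp (adjusted p = 0.012), −6.95 for Col11a2 (1.59e-05), −3.78 for Phospho1 (3.31e-05), −4.01 for Panx3 (0.00566) and −1.23 for Pth1r (0.0424). Ibsp had 27 and 39 counts at day 0 and 9433 and 5212 at day 5 in the libraries labelled knockdown, and its difference did not pass without their second library of day 0 (adjusted p = 0.106). That of Panx3 did not pass without the first of them (−3.63, adjusted p = 0.0962). That of Pth1r passed in only 2 of the 8 fits that left out 1 library, with adjusted p up to 0.269.

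Among the largest falls of control the difference was 6.04 for Il1rn (adjusted p = 0.000435), 5.03 for Otor, a secreted protein known from the inner ear (3.95e-05), 3.62 for Enpep (0.000911), 3.96 for Aoc3 (2.48e-05) and 1.78 for Npr3 (0.00107). Il1rn rested on 5 and 1 counts at day 0 and 13 and 6 at day 5 in the libraries labelled knockdown.

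Among the genes chosen by name, the difference was 1.82 for Alpl, −1.83 for Spp1, −3.96 for Dmp1, 0.64 for Col1a1, −1.52 for Lef1 and −0.51 for Mki67 (adjusted p = 0.00789, 0.000105, 1.94e-06, 0.044, 0.0245 and 0.0263). That of Alpl did not pass without the first (adjusted p = 0.0719) or second (0.051) library labelled knockdown of day 0. In fits that left out 1 of the 8 libraries, those of Lef1 and Col1a1 missed the threshold in most, with adjusted p up to 0.107 and 0.172, and that of Mki67 missed it in all 8, with up to 0.0935. That of Col1a1 also missed it with library totals as scaling (adjusted p = 0.066).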

How the results depend on the processing

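None of the 200 named genes changed sign under any alternative of the control comparison, and 198 were called. All 14 libraries in 1 fit ended the call of 55 of them and called 587 genes higher and 514 lower. A test against a fold change of 1.5 called 538 and 441. Leaving out 1 of the 4 libraries at a time gave 1617 to 2041 higher and 1454 to 1767 lower, and 2319 genes were called in all 4 of these fits. For the difference between conditions, the 8 fits without 1 library gave 432 to 527 genes above 0 and 302 to 351 below. The count above 0 was smaller by over 1.5 times without control day 0 replicate 2 (435), control day 5 replicate 1 (442) or 2 (440) and knockdown day 0 replicate 1 (432), and the count below 0 without each of the 8 in turn. Summed over the lists, 295 members rose and 285 fell, and 145 and 108 did so with all 14 libraries. The causes were not tested beyond the larger dispersion given in the report.

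Same-numbered libraries share only a number in the labels. Their deviations from the day means correlated at 0.416 across genes. With the replicate number as a block, 3385 genes rose and 3290 fell, among them all 3936 called without it, and the difference was above 0 for 1708 genes and below for 1779. With the block the differences of Runx2 (0.30, adjusted p = 0.00863) and Axin2 (0.85, adjusted p = 0.00678) passed.

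Some differences between conditions turned sign. For Bglap the fits without 1 library ran from −0.80 (without control day 0 replicate 1) to 6.16. For Sp7 they ran from −0.28 to 0.08 (without control day 5 replicate 2). For Ccnb1 they ran from −0.09 to 0.06, being 0.00 or above without control day 0 replicate 2, knockdown day 0 replicate 2 or knockdown day 5 replicate 1, and the GC correction gave 0.03. Of the list medians, that of osteoclast coupling genes ran from −0.60 to 0.24, and that of complement genes from −0.19 to 0.60, each turning sign without control day 0 replicate 1. With the GC correction the medians of osteoblast transcription factors (−0.05 to 0.07) and of Wnt ligands and receptors (−0.04 to 0.05) changed sign. With 2 libraries per day, genes near 10 counts and changes under 2-fold are the least certain.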

Other observations

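Gene groups that the report did not describe changed by smaller counts. Of 28 antioxidant genes and targets of NRF2, the factor that answers oxidative stress, 11 fell (4 with all 14 libraries) and 1 rose (2 with the GC correction). Gstm1, a glutathione transferase, was 102 and 99.4 CPM at day 0 and 30.1 and 28.8 CPM at day 5 (log2 fold change −1.77, SE 0.10, adjusted p = 7.76e-06). Nqo1, a quinone reductase and standard NRF2 target, was 29.1 and 28.8 CPM at day 0 and 10.4 and 9.96 CPM at day 5 (log2 fold change −1.50, SE 0.13, adjusted p = 8.55e-05). Nfe2l2, which encodes NRF2, was 153 and 149 CPM at day 0 and 178 and 179.9 CPM at day 5 and did not pass (adjusted p = 0.0743). Of 31 lysosomal and autophagy genes 9 fell (2 with all 14 libraries) and none rose (1 with the GC correction), with the cathepsins Ctsb (507 and 494 CPM at day 0 and 215 and 236 CPM at day 5) and Ctsl (163 and 171 CPM at day 0 and 81.7 and 85.8 CPM at day 5) among them. Fth1, the ferritin heavy chain that stores iron, was 2871 and 2715 CPM at day 0 and 800.1 and 768 CPM at day 5 (log2 fold change −1.83, SE 0.12, adjusted p = 1.35e-05), 1 of the 10 largest falls in CPM.

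Adhesion and guidance genes were divided. Of 27 integrin and adhesion genes 10 fell (6 with all 14 libraries) and 6 rose (3). These are 37.0% and 22.2%, against 15.5% fallen and 17.1% risen over all tested genes, so the share of rises was near that of all genes. Itga1, a collagen-binding integrin chain, was 39.8 and 41.9 CPM at day 0 and 11.8 and 12.1 CPM at day 5 (log2 fold change −1.77, SE 0.13, adjusted p = 2.41e-05). Vcam1, an adhesion molecule for leukocytes, was 399 and 349 CPM at day 0 and 148 and 131 CPM at day 5 (log2 fold change −1.42, SE 0.11, adjusted p = 4.8e-05). Of 22 semaphorin, guidance and angiogenic genes 9 rose and 7 fell (3). Robo2, a receptor of Slit proteins, was 0.551 and 0.742 CPM at day 0 and 9.15 and 11.6 CPM at day 5 (log2 fold change 3.99, SE 0.30, adjusted p = 3.43e-05). Vdr, the vitamin D receptor, was 78.7 and 85 CPM at day 0 and 24 and 23.9 CPM at day 5 (log2 fold change −1.77, SE 0.11, adjusted p = 9.73e-06). Among signals to osteoclasts and immune cells, Csf1, the macrophage growth factor, was 533 and 543 CPM at day 0 and 205 and 226 CPM at day 5 (log2 fold change −1.32, SE 0.10, adjusted p = 4.09e-05). Ccl7 was 17.9 and 18.3 CPM at day 0 and 3.84 and 3.7 CPM at day 5 (log2 fold change −2.26, SE 0.17, adjusted p = 3.49e-05). Lif, a cytokine of the interleukin-6 family, was 0.979 and 1.35 CPM at day 0 and 8.17 and 8.98 CPM at day 5 (log2 fold change 2.88, SE 0.27, adjusted p = 0.000103). Ptx3, a secreted pattern recognition protein, was 601 and 567 CPM at day 0 and 112 and 90.9 CPM at day 5 (log2 fold change −2.52, SE 0.13, adjusted p = 4.32e-06). The metallothionein Mt1 was 21.7 and 21.6 CPM at day 0 and 49.6 and 52.1 CPM at day 5 (log2 fold change 1.23, SE 0.11, adjusted p = 9.1e-05), a rise that did not pass with all 14 libraries (adjusted p = 0.154).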
